A study of Mus musculus with 6 samples.

Results

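Long noncoding RNA genes of mouse ovarian granulosa cells are described here, both the lincRNA genes, which lie between protein-coding genes, and the antisense genes, which are transcribed from the strand opposite a coding gene. A gene was taken when GENCODE release M21 gives it the biotype lincRNA or antisense and its FPKM (fragments per kilobase of exon, scaled to library size) averaged at least 2 over the 6 libraries; 1 gene set aside beforehand is not reported here. This gave 155 genes, 88 lincRNA and 67 antisense, of 3303 lincRNA and antisense genes and 27151 genes of any kind in the deposited table. Gm17210 (mean 2.01 FPKM) and Gm26935 (2.01) stood just inside the limit, and Gm45495 (1.998) and Gm16892 (1.99) just outside. The genes were chosen by their mean FPKM over all libraries, so their levels are description, while the difference between the groups was not used for the choice. A further 102 genes of other long noncoding biotypes, among them Gas5 and Firre, also reached a mean of 2 and were not included.

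The libraries came from primary mouse granulosa cells punctured from ovarian follicles, grown for 24 h in serum-containing medium and then kept without serum for 12 h. The 3 control libraries were from cells left untreated for the next 24 h. The 3 GSK4112 libraries were from cells given GSK4112, a synthetic agonist of the heme-binding nuclear receptor NR1D1 (REV-ERBα), over the same 24 h. A medium change, with a time of 12 h, is listed for both groups. Strain, age and genotype of the mice are not given in the labels. Nor is it stated that the libraries of a group stem from different animals or dishes, and the p-values thus reflect the spread between these libraries alone. The series' design text places the treatment in the animal, whereas the protocol describes cells in a dish. The study asked how NR1D1 activity affects endocrine function of these cells.

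Long noncoding RNAs are transcribed by RNA polymerase II and often spliced and polyadenylated like messenger RNAs, but are usually less abundant and act, where a function is known, as RNA. Some build nuclear structures, such as Neat1 in paraspeckles and Malat1 in nuclear speckles, and Xist coats the inactive X chromosome. Others carry small nucleolar RNAs in their introns, or start at the promoter of a coding gene and run away from it. Granulosa cells surround the oocyte, convert androgens to estrogens, secrete inhibins and activins, and after ovulation turn to progesterone synthesis. NR1D1 is a transcriptional repressor of the circadian clock that binds the core motif AGGTCA preceded by an A/T-rich stretch.

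The transcripts of the 2 noncoding genes that passed the test between groups are shown first. The printed part of the Gm42303 transcript (bases 201 to 400 of 1170 in the annotated RNA of 2 exons, GENCODE M21) surrounds its splice junction, with the 4 bases on each side of the junction in capitals.
Gm42303: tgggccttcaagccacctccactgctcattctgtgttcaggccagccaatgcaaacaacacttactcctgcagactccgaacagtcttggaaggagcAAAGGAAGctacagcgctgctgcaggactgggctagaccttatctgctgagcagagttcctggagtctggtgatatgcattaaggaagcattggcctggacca
The first 300 of 1511 bases of the Gm42743 transcript, also of 2 exons, carry in capitals the 226 bases (32 to 257) that lie within an exon of the histone gene Hist2h2bb on the same strand. The stretch opens with ATG and ends at the splice junction of Gm42743, so fragments from it could belong to either gene.
Gm42743: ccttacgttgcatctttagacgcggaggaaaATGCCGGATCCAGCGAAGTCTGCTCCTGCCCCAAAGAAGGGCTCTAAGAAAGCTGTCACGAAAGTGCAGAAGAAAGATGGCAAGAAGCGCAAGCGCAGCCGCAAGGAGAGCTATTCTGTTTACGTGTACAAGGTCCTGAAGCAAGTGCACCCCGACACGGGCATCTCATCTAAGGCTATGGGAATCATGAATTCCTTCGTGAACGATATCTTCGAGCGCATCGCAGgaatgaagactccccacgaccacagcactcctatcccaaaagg

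Promoters (windows of 300 bases ending 50 bases after a RefSeq start, GRCm38.p6) were given for 65 of the 155 genes. The NR1D1 and ROR response element (AGGTCA with its A/T-rich extension, a motif of 10 letters), searched on both strands, was in 2 of the 73 promoters of these genes (2.74%), those of 1700096K18Rik and E430024I08Rik, and in 0.219% of all 32851 promoters. Both are shown with the element in capitals, from chr5:25529768-25530067 (plus strand) and chr13:74463094-74463393 (minus strand). E430024I08Rik has 3 windows, and only the 1 shown held the element. Its RefSeq start is 286 bp from the GENCODE start, and the window of the nearest RefSeq start, at 183 bp, had no match. Shown beside them is the promoter of Gm36377 (chr13:70655787-70656086, minus strand), a noncoding gene lower in GSK4112 in the fit with the replicate block, which had no match.
1700096K18Rik: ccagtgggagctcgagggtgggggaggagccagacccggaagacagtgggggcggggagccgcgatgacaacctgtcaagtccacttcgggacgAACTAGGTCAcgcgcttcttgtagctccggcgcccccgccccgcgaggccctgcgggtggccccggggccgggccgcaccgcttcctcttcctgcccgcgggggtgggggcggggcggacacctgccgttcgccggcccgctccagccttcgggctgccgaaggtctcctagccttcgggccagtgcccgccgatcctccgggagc
E430024I08Rik: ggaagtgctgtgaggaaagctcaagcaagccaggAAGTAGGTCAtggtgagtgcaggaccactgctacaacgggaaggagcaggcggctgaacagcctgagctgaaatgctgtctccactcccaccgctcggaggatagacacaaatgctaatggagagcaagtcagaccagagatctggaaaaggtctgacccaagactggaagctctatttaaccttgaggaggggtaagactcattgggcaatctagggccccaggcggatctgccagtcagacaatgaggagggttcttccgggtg
Gm36377: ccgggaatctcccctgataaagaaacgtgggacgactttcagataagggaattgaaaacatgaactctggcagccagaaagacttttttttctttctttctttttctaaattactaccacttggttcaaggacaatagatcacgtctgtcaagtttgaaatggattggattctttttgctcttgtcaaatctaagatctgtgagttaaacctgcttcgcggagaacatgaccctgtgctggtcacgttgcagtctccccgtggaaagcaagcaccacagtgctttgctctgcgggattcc
The shorter AGGTCA, part of the longer element, was in 13 of the 73 promoters (17.8%) and in 16.3% of all promoters. The E-box CACGTG, bound by CLOCK and BMAL1, was in 11 of the 73 (15.1%) and in 7.15% of all. None of the 3 motifs was in the 6 promoters on hand of noncoding genes called with the replicate block. These were 2 windows of Gm36377 and 1 each of Gm17501, Snhg20, 2900076A07Rik and Gm15543. Gm42303, Gm42743 and Neat1 had none on hand, and 6 windows are too few to set against the shares of all promoters. A match describes letters in this window and not a bound site. 1700096K18Rik averaged 1.69 ± 0.193 FPKM in control and 2.46 ± 0.328 in GSK4112 (SD, n = 3), and did not pass (limma adjusted p = 0.235). E430024I08Rik averaged 2.94 ± 0.874 and 3.88 ± 0.907 (adjusted p = 0.485).

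Recovered totals were 16559256 to 18158274 fragments per library. The 2 libraries numbered replicate 1 were the lowest along the first principal component (49.4% of the variance), at -38.6 for control and -13.4 for GSK4112. Control replicates 2 and 3 lay at 1.05 and 2.29, and GSK4112 replicates 2 and 3 at 26.6 and 22.1. In each replicate pair the GSK4112 library lay higher, so this component also ran with the groups. The replicate 1 libraries carried more mitotic RNA: 10 mitosis genes summed to 141 and 108 FPKM there and to 18.0 to 40.7 elsewhere. The mitosis genes also moved with the groups, with 0 of 10 above 0 and a median change of -0.57. With the block 4 of them, Top2a, Plk1, Cdk1 and Ccnb1, were called lower (3.82% of all genes were), and 0 without it. The smooth-muscle and stroma list, mostly Acta2, summed to 277 and 152 FPKM in them and to 57.8 to 92.8 elsewhere, and the immune list, mostly Lyz2, to 41.2 and 38.2 FPKM against 7.21 to 19.1. The theca marker Cyp17a1 reached at most 0.0555 FPKM and the leukocyte marker Ptprc at most 0.0678 in any library, and the endothelial and oocyte lists had no gene above the filter. The granulosa markers Foxl2 (29.9 to 64.4 FPKM) and Inha (1370 to 2245 FPKM) were present in every library, while Cyp19a1 was near 0 (0.0131 to 0.165). The granulosa list also moved with the groups, summing to 2937 to 3596 FPKM in control and 2151 to 2928 in GSK4112, with 1 of 8 tested markers above 0 and a median change of -0.33. Its follistatin gene Fst was at 73.6 ± 15.4 and 24.0 ± 2.38 FPKM (SD, n = 3; -1.56, limma adjusted p = 0.0187), and the activin subunit gene Inhba was called lower with the replicate block only. In FPKM the fall was largest for Cyp11a1 (means of 751 in control and 418 in GSK4112) and Inhba (335 and 124). Amhr2 (0.05), Inha (-0.13), Fshr (-0.18), Nr5a2 (-0.22) and Foxl2 (-0.44) changed less and passed in neither fit. The surface epithelium list, mostly Krt8 and Krt18, moved with the groups too, at 44.0 to 116 FPKM summed in control and 15.8 to 40.2 in GSK4112. The part of the mitosis, granulosa and surface epithelium lists in the results below was not tested.

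The noncoding genes were expressed at low levels. Their median was 3.56 FPKM (3.67 for lincRNA, 3.56 for antisense), against 10.6 for the 9685 protein-coding genes with a mean of at least 2. Only 23 of the 155 (14.8%) averaged 10 FPKM or more, compared with 52.3% of the coding genes, and 104 lay below 5. They were also shorter, with a median of 1151 bases of exon (1850 for lincRNA, 773 for antisense) in 2 exon blocks, against 4551 bases in 10 blocks, and 29 had a single block. Most have no name beyond a code, 91 a predicted-gene number and 42 a RIKEN clone number. All 155 together made up 0.484 to 0.696% of the summed FPKM of a library.

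AU020206, a lincRNA on chromosome 7, was the most abundant, at 507, 517 and 635 FPKM in the control and 434, 504 and 503 in the GSK4112 libraries, and alone gave 24.9 to 35.3% of the summed FPKM of the noncoding genes. Malat1, the nuclear speckle RNA, followed at 146, 221 and 274 FPKM in control and 273, 359 and 266 in GSK4112. The groups of Malat1 overlapped, and those of AU020206 came as near as 507 and 504 FPKM without overlapping. Neither differed past the threshold (limma adjusted p = 0.492 and 0.350). Gm26809 (51.6 to 73.0 FPKM) came next, although 73.2% of its sequence also occurs in other genes, so its reads are uncertain.

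2900097C17Rik, the mouse Norad gene, whose RNA sequesters PUMILIO proteins, was at 30.03, 32.2 and 37.4 FPKM in control and 42.9, 46.2 and 45.3 in GSK4112. All GSK4112 values were above all control values, by 0.43 on the log2 scale, which passed with the replicate block (adjusted p = 0.0456) and not without it (0.108); 51.6% of its sequence has a near-identical copy elsewhere. Xist was at 25.3, 29.4 and 36.8 FPKM and at 47.9, 45.5 and 32.0, with overlapping groups. 1700020I14Rik, the conserved lincRNA Cyrano next to Oip5, was at 20.4, 23.4 and 26.7 FPKM and 29.3, 33.2 and 25.3. The remaining genes of the 10 most abundant were 1810058I24Rik, which RefSeq classes as protein-coding, Gm17201, Gm26917 and Neat1, at group means of 17.9 to 38.6 FPKM. Among these 10, neighbours in the order such as Gm17201, Neat1 and 1700020I14Rik had overlapping library values and are not separated by their spread.

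**Figure D1:**
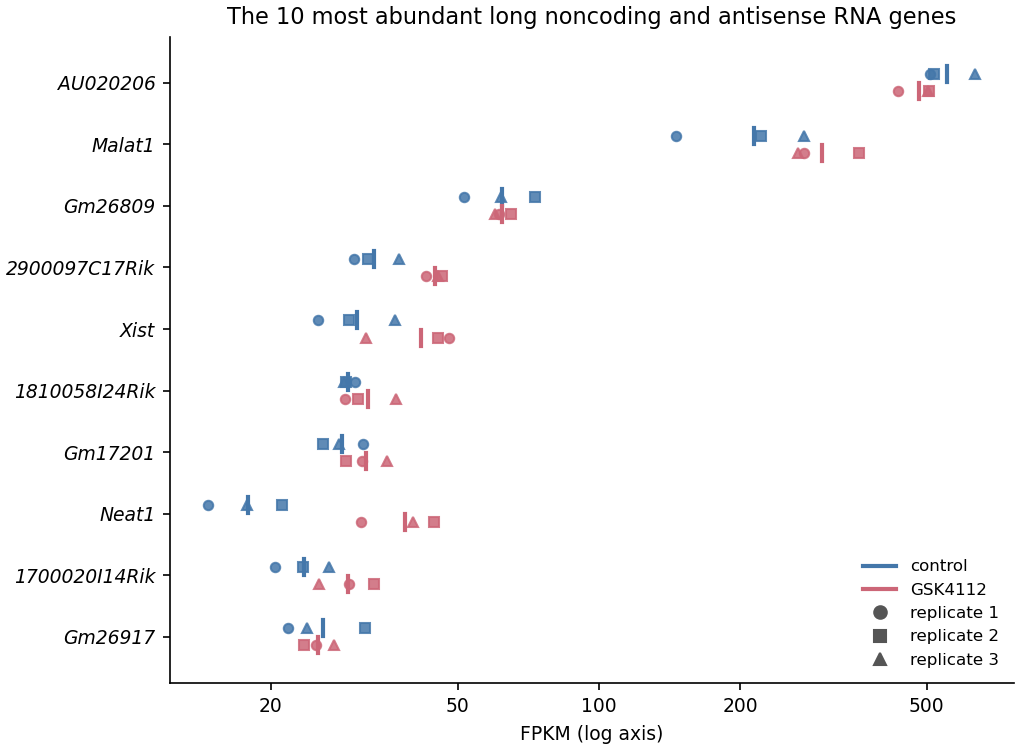
FPKM on a log axis of the 10 most abundant long noncoding and antisense RNA genes in each of 6 libraries (symbols), with the group mean as a vertical bar, control in blue and GSK4112 in red. AU020206 and Malat1 stand at 146 FPKM or higher in every library, and Neat1 and 2900097C17Rik have all GSK4112 values above all control values.

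The effect of GSK4112 was tested over all 12181 genes with a mean of at least 1 FPKM (limma on log2(FPKM + 1), adjusted p under 0.05). Changes are GSK4112 minus control on that scale and so are smaller than the ratio of FPKM for low genes. Of the 155 noncoding genes, 2 passed (1.29%), 1 higher and 1 lower, near the 1.03% of all genes tested (0.41% higher, 0.624% lower). The antisense gene Gm42303 fell and the lincRNA gene Gm42743 rose. With the replicate number as a block, 22 of the 155 passed (14.2%), 15 higher and 7 lower, against 6.89% of all genes (3.07% higher, 3.82% lower). No label states this pairing. With the numbers 2 and 3 swapped, the paired libraries correlated more highly (0.530 and 0.357, against 0.326 and 0.213), so calls with the block depend on an uncertain pairing. These 22 include both genes above. Each moved in the direction of the fit in all 3 replicate pairs, which selection by that fit favours, so it is no further support. In 16 of the 22 the groups did not overlap, which the same selection favours, and 14 have no exon overlapping an exon of another gene. In these bulk libraries, fewer cells of a type and less RNA per cell cannot be told apart.

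Groups without overlap were found for 40 of the 155 (25.8%), 26 higher and 14 lower, against 23.6% of all genes (15.7% higher, 7.9% lower). Without both replicate 1 libraries 25 of the 155 passed (16.1%), 13 higher and 12 lower, against 6.92% of all genes (3.17% higher, 3.75% lower), and 19 of these were also among the 22 passing with the block. Leaving both out and keeping the block gave 30, 17 higher and 13 lower, against 9.14% of all genes (4.06% higher, 5.08% lower). With sample weights 17 passed, 8 higher and 9 lower, against 6.81% of all genes (3.86% higher, 2.96% lower). For a single gene an exact permutation of 3 against 3 libraries cannot give a p below 0.1.

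Gm42303 had the largest change of the 155. It was at 5.27, 6.29 and 5.96 FPKM in control and at 0.506, 0.671 and 0.688 in GSK4112, from 112, 127 and 116 fragments against 10, 13 and 14. The groups were far apart and each was tight, 5.84 ± 0.519 and 0.622 ± 0.101 FPKM (SD, n = 3). It fell by 2.08 on the log2 scale (SE 0.118, limma adjusted p = 0.00883, and 0.00183 with the block). The gene lies at chr4:76451231-76490113 on the plus strand, inside the body of Ptprd on the minus strand, which encodes a receptor-type tyrosine phosphatase known from synapse formation. None of its 1170 exon bases overlaps another annotated exon or has a near-identical copy, and its start is 1760730 bp from that of Ptprd. Ptprd was at 10.9, 11.9 and 16.9996 FPKM in control and 6.17, 9.80 and 7.96 in GSK4112, lower in every GSK4112 library than in any control library. Its change of -0.66 did not pass (SE 0.205, adjusted p = 0.182, and 0.0507 with the block). Reads from unspliced Ptprd RNA within the Gm42303 exons were not told apart here, since the strand setting of the counting is not given.

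Gm42743 was at 2.70, 2.65 and 2.23 FPKM in control and 5.40, 6.03 and 6.21 in GSK4112, from 56 to 74 and 138 to 163 fragments. The groups did not overlap, at 2.52 ± 0.258 and 5.88 ± 0.423 FPKM (SD, n = 3). It rose by 0.97 on the log2 scale (SE 0.105, limma adjusted p = 0.0202, and 0.00887 with the block). Gm42743 lies at chr3:96269721-96279001 on the plus strand and starts 31 bp from Hist2h2bb, a histone H2B gene that is not analysed here, in the shared stretch printed above. Of its bases 257, the shared 226 included, lie opposite exons of the antisense gene Gm20628. Replication-dependent histone messages lack a poly(A) tail and are made in S phase. The mitosis genes summed to less in GSK4112 replicates 2 and 3 (20.4 and 18.0 FPKM) than in control replicates 2 and 3 (36.3 and 40.7); whether cell cycling has a part in the Gm42743 values was not tested.

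**Figure D2:**
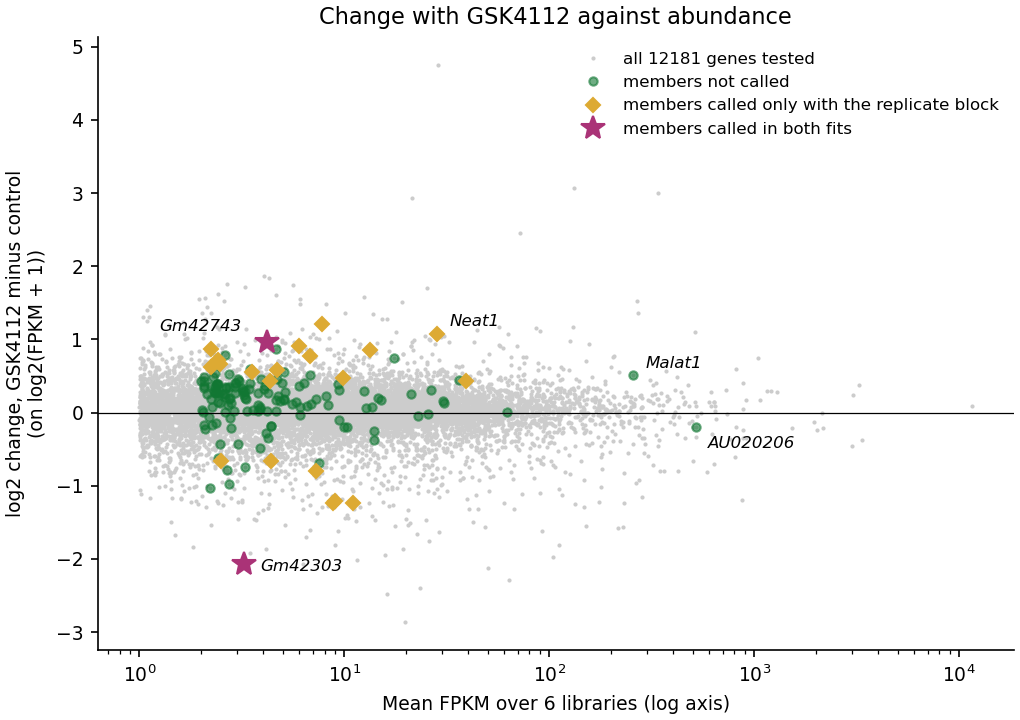
Change with GSK4112 on the log2(FPKM + 1) scale against mean FPKM (log axis) for all 12181 genes tested (grey) and the 155 noncoding genes (green circles, gold diamonds where called only with the replicate block, purple stars where called in both fits). Gm42303 at -2.08 lies below all other noncoding genes, and Gm42743 and Neat1 lie near 1.

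Neat1, the scaffold RNA of paraspeckles, was at 14.7, 21.1 and 17.8 FPKM in control and 31.2, 44.5 and 40.2 in GSK4112, on chr19:5824708-5845478, minus strand. Every GSK4112 library was above every control library, and the means were 17.9 ± 3.21 and 38.6 ± 6.78 FPKM (SD, n = 3). The difference of 1.07 on the log2 scale (SE 0.172) narrowly missed the threshold without the block (limma adjusted p = 0.0507) and passed with it (0.00265), and it passed in 9 of 20 alternative analyses. Its values rest on 5552 to 15290 fragments per library, and 1.85% of its exon length overlaps small RNA annotations. Frmd8, the nearest coding gene 4224 bp upstream, was at 27.2, 28.7 and 23.5 FPKM in control and 37.3, 33.8 and 35.4 in GSK4112, also without overlap (0.41, SE 0.0961, adjusted p = 0.108, and 0.0573 with the block).

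Of 11 nuclear RNAs in the table, 7 were tested and 4 are among the 155: Neat1, Malat1, Xist and Tug1. None of the 7 passed limma without the block (1.03% of all genes did), 1 had an unadjusted p under 0.05, as 2065 of all 12181 genes did, and 1, Neat1, passed with the block (6.89% of all genes did) and with limma-voom. Of the 7, 6 were above 0, with a median change of 0.44 against 0.054 over all genes. Malat1 (0.52) and Xist (0.44) rest partly on control replicate 1, the lowest library of both; without both replicate 1 libraries they were 0.33 and 0.21. Tug1 was at 13.03, 14.5 and 15.0 FPKM in control and 15.4, 16.4 and 16.4 in GSK4112 (0.17, adjusted p = 0.358). For comparison, 18 coding genes for partner proteins of Neat1, Malat1 or Xist, among them the paraspeckle proteins Nono, Sfpq and Pspc1, had a median change of -0.0048. None passed limma with the block (6.89% of all genes did), without it (1.03%) or limma-voom, and 2 had an unadjusted p under 0.05. Nono averaged 118 ± 5.02 FPKM in control and 118 ± 7.51 in GSK4112, and Sfpq 69.6 ± 9.42 and 69.1 ± 5.67 (SD, n = 3).

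Of 16 host genes of small nucleolar RNAs, 13 were tested and 6 are among the 155: Epb41l4aos, Snhg6, Snhg18, Snhg20, Snhg12 and Snhg10. None of the 13 passed limma without the block (1.03% of all genes did) or limma-voom, and 2 had an unadjusted p under 0.05, as 2065 of all 12181 genes did. With the block, which called 6.89% of all genes, Snhg20 was higher and Snhg1, which is not among the 155, lower. Snhg20 was at 6.28, 8.59 and 9.43 FPKM in control and 8.47, 13.5 and 13.1 in GSK4112, higher in each pair although the groups overlap (0.47, limma adjusted p = 0.318, and 0.0354 with the block). Snhg6 went the other way, at 14.5, 15.0 and 16.2 FPKM against 11.3, 12.9 and 13.9, without overlap and without passing (-0.25, adjusted p = 0.263). Of 14 nonsense-mediated decay factors tested, none passed limma without the block (1.03% of all genes), with it (6.89%) or limma-voom, and 0 had an unadjusted p under 0.05 (median change -0.044). Of the imprinted RNAs 3 were tested and of the microRNA hosts 2, and none of either is among the 155. Of these only the imprinted Peg13 passed, lower and with the block only, as 3.82% of all genes were (-0.45, limma adjusted p = 0.116, and 0.0292 with the block). Of 5 growth and stress RNAs tested, 3 are among the 155 (2900097C17Rik, 1700020I14Rik and Tug1), and 2900097C17Rik was the 1 that passed, with the block, as 6.89% of all genes did.

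Among the noncoding genes that passed only with the block, 6 were lower in addition to Gm42303. Gm11775, antisense to Cd7, was at 9.55, 22.6 and 16.1 FPKM in control and 6.43, 5.39 and 5.88 in GSK4112 (-1.23, SE 0.274, limma adjusted p = 0.0977, and 0.0365 with the block). The GSK4112 libraries were alike, whereas control ranged widely, with replicate 1 lowest. Gm36377 was at 13.7, 16.0 and 8.81 FPKM in control and 5.94, 4.87 and 3.65 in GSK4112 (-1.23, adjusted p = 0.0718, and 0.00534 with the block). Its nearest coding gene Ice1, 13371 bp away on the same strand, barely differed (-0.02), and 26.0% of the exon length of Gm36377 lies opposite the lincRNA gene D030007L05Rik.

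1700016F12Rik was at 18.8, 9.82 and 10.6 FPKM in control and 6.14, 4.33 and 4.30 in GSK4112, with replicate 1 the highest of each group (-1.21, limma adjusted p = 0.0861, and 0.00534 with the block). It lies at chr5:96849505-96852938, plus strand, 3539 bp beyond the 3′ end of Anxa3 on the same strand, which encodes a calcium-dependent membrane-binding annexin. In Anxa3 replicate 1 was also the highest of each group, at 91.4, 51.6 and 50.1 FPKM in control and 55.2, 27.8 and 29.0 in GSK4112. The groups of Anxa3 overlapped (-0.78, limma adjusted p = 0.297, and 0.0076 with the block). Its change was -0.51 without control replicate 1 and -0.82 without both replicate 1 libraries (limma adjusted p = 0.00691 for the latter). Transcripts running past the end of Anxa3 would be counted to 1700016F12Rik; that was not tested.

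Gm17501 was at 11.4, 8.16 and 8.80 FPKM in control and 6.78, 4.03 and 4.43 in GSK4112 (-0.80, limma adjusted p = 0.119, and 0.00881 with the block). Its annotated start lies 331 bp from that of Ccn1, on the opposite strand, so that the genes run away from each other, and the RefSeq promoter windows of both overlap by 191 bp. Ccn1, a secreted matricellular protein induced by serum and by YAP, was at 497, 243 and 298 FPKM in control and 359, 113 and 129 in GSK4112 (-0.92, adjusted p = 0.383, and 0.0290 with the block). Its change was -1.45 without GSK4112 replicate 1 and -1.15 without both replicate 1 libraries (limma adjusted p = 0.0102 for the latter). In both genes replicate 1 was the highest library of each group, and every replicate pair fell.

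Gm17322, a pseudogene in RefSeq, was at 3.50, 3.37 and 3.05 FPKM in control and 1.96, 1.42 and 1.78 in GSK4112, without overlap (-0.67, limma adjusted p = 0.0676, and 0.0290 with the block). It starts 8370 bp upstream of Cyp11a1 on the same strand and runs into it, and 145 of its exon bases (6.69%) are shared with Cyp11a1, so some reads cannot be told apart. Cyp11a1, the mitochondrial enzyme that carries out the first step on cholesterol on the way to steroids, was at 559, 889 and 805 FPKM in control and 446, 388 and 420 in GSK4112 (-0.82, adjusted p = 0.103, and 0.0573 with the block). Zfp469, annotated as lincRNA in GENCODE M21 and as protein-coding in RefSeq, was at 5.74, 5.49 and 5.58 FPKM and 4.09, 2.76 and 2.76 (-0.67, limma adjusted p = 0.0865, and 0.0285 with the block). Control was nearly constant for Zfp469 and all GSK4112 values were lower.

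Higher with the block only were 14 noncoding genes, with changes of 0.43 to 1.21. Gm47015 was at 10.2, 2.33 and 2.33 FPKM in control and 13.2, 9.32 and 9.49 in GSK4112 (1.21, limma adjusted p = 0.266, and 0.0461 with the block). Control replicate 1 alone stood above the rest of its group here; without both replicate 1 libraries the change was 1.64 (adjusted p = 0.0016). Gm28151, inside an intron of the zinc transporter gene Slc39a10 on the same strand, was at 1.51, 5.91 and 4.17 FPKM and at 3.67, 10.9 and 9.80, with replicate 1 lowest in both groups (0.92, 0.388 and 0.00764); without control replicate 1 the change was 0.50 (limma adjusted p = 0.596). Gm21781, which starts 3479 bp from Zbtb2 on the opposite strand, was at 1.84, 6.07 and 6.19 FPKM and 3.74, 12.8 and 10.0 (0.77, 0.484 and 0.0144). The change of Gm21781 was 0.33 without control replicate 1 (limma adjusted p = 0.750), 0.46 without GSK4112 replicate 2 and 1.23 without GSK4112 replicate 1. Slc39a10 (0.17) and Zbtb2 (0.13) did not pass in either fit.

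Gm26833, a single exon of 440 bases, starts 1300 bp from Tmem178b on the opposite strand and was at 0.626, 1.98 and 1.37 FPKM in control and 2.82, 3.16 and 3.40 in GSK4112, without overlap but from 5 to 26 fragments only (0.87, limma adjusted p = 0.132, and 0.0354 with the block). Tmem178b, an uncharacterized membrane protein gene, was at 0.821, 1.17 and 1.04 FPKM and 2.61, 2.75 and 2.28 (0.82, adjusted p = 0.0507, and 0.0203 with the block). Gm28875 was at 1.44, 1.71 and 1.57 FPKM and 2.69, 3.56 and 3.53 (0.72, adjusted p = 0.0637, and 0.0207 with the block). It lies 3244 bp past the 3′ end of Syne3 on the same strand, and Syne3, which encodes the nuclear envelope protein nesprin-3, was at 1.33, 1.48 and 1.86 FPKM and 3.52, 3.74 and 3.31. Syne3 was the single nearest coding gene that passed without the block (0.83, SE 0.123, adjusted p = 0.0438, and 0.0195 with the block), but it lost that call in 8 alternatives, among them each library left out in turn.

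Gm15543, antisense within Casc1, was at 9.46, 9.15 and 8.32 FPKM in control and 11.5, 21.1 and 20.6 in GSK4112 (0.86, limma adjusted p = 0.131, and 0.0494 with the block). Its rise was small in replicate 1 and large in the other pairs. Gm37584, 5040 bp from the start of Mex3a, was at 1.02, 2.02 and 1.91 FPKM and 1.79, 4.26 and 3.84 (0.66, 0.300 and 0.0322). The remaining noncoding genes higher with the block were Gm15563 (0.63), Gm20186 (0.58), 2900076A07Rik (0.55), Gm12319 (0.43), and Snhg20, 2900097C17Rik and Neat1 described above. Gm20186 overlaps Gm26809 over 81.4% of its exon length on the opposite strand, so its value is uncertain.

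**Figure D3:**
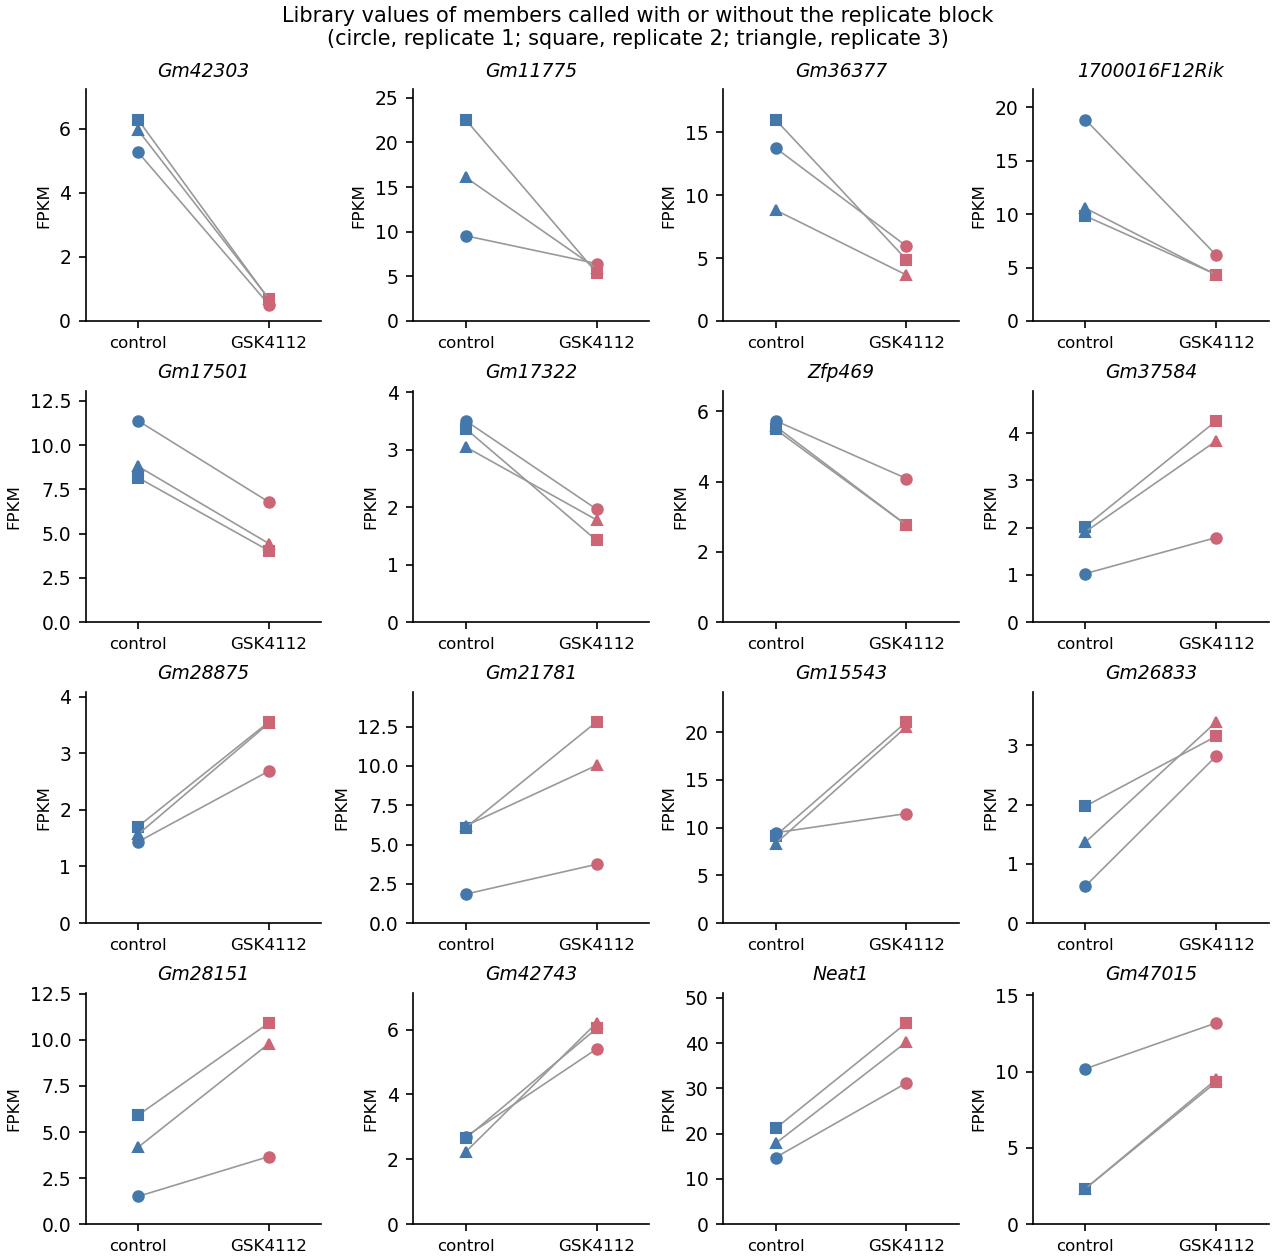
FPKM of 16 noncoding genes called with or without the replicate block, one panel each with the axis starting at 0; lines join control (blue) and GSK4112 (red) libraries of the same replicate number. Gm42303 stands at 5.27 to 6.29 FPKM in control and at most at 0.688 in GSK4112, and replicate 1 (circles) often lies apart from the others. All lines of a panel run the same way, which selection by the block favours.

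Some of the larger changes passed in neither fit. The 3 genes named here were picked with their values known, for their coding neighbours. Gm48444, antisense within Inhba, was at 2.79, 3.03 and 3.78 FPKM in control and 2.37, 0.422 and 0.803 in GSK4112, from as few as 4 fragments (-1.03, limma adjusted p = 0.181, and 0.0752 with the block). Inhba, the βA subunit of activin and inhibin, was at 341, 300.3 and 363 FPKM and 207, 89.0 and 76.6 (-1.56, 0.102 and 0.0266). In both genes GSK4112 replicate 1 was the highest of its group. Gm12295, 7665 bp from Myocd on the same strand, was at 1.64, 6.55 and 4.09 FPKM and 1.30, 1.50 and 1.35 (-0.97, 0.243 and 0.0760), while Myocd, a coactivator of smooth-muscle genes, was at 2.68, 1.74 and 2.73 and 0.746, 0.404 and 0.376 (-1.16, 0.05004 and 0.0129). Prss23os shares 54.3% of its exon length with the opposite strand of Prss23, a serine protease gene, and was at 5.98, 1.38 and 2.08 FPKM and 3.42, 1.02 and 0.578 (-0.62, 0.583 and 0.0770). Prss23 was at 150, 63.3 and 73.6 FPKM and 66.7, 25.2 and 25.4 (-1.32, 0.228 and 0.00265).

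The noncoding genes lay mostly above 0. Their median change was 0.23, and 119 of the 155 (76.8%) were above 0, against 0.054 and 60.9% over all genes tested and 0.053 for protein-coding genes with a mean of at least 2. The median was 0.28 for lincRNA and 0.18 for antisense genes. Scaling by the median of ratios, which set the median of all genes at 0.0028, left the noncoding genes at 0.18 (70.3% above 0), and quantile normalization at 0.19. The size depended on control replicate 1. In that library 83 of the 155 had their lowest value (53.5%), against 26.1% of all genes tested. Without it the median of the noncoding genes was 0.12 (62.6% above 0), against 0.061 over all genes, and that of the antisense genes 0.037. The antisense median was 0.16 (70.1% above 0) with the replicate 1 libraries of both groups left out.

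Low values in replicate 1 were seen within both groups. Replicate 1 was the lowest control library for 104 of the 155 (67.1%; 36.1% of all genes) and the lowest GSK4112 library for 92 (59.4%; 37.3%), and in both groups at once for 75 (48.4%; 22.7%). GSK4112 replicate 2 held the highest value of 64 (41.3%), against 19.6% of all genes. The summed FPKM of the noncoding genes was 1438, 1726 and 1930 in control and 1640, 2022 and 1823 in GSK4112, with overlapping groups. With both replicate 1 libraries left out the median change was 0.21 (69.7% above 0; 0.058 over all genes). The mitotic, stromal and immune lists were highest in the same 2 libraries; their part in the low noncoding values was not tested.

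**Figure D4:**
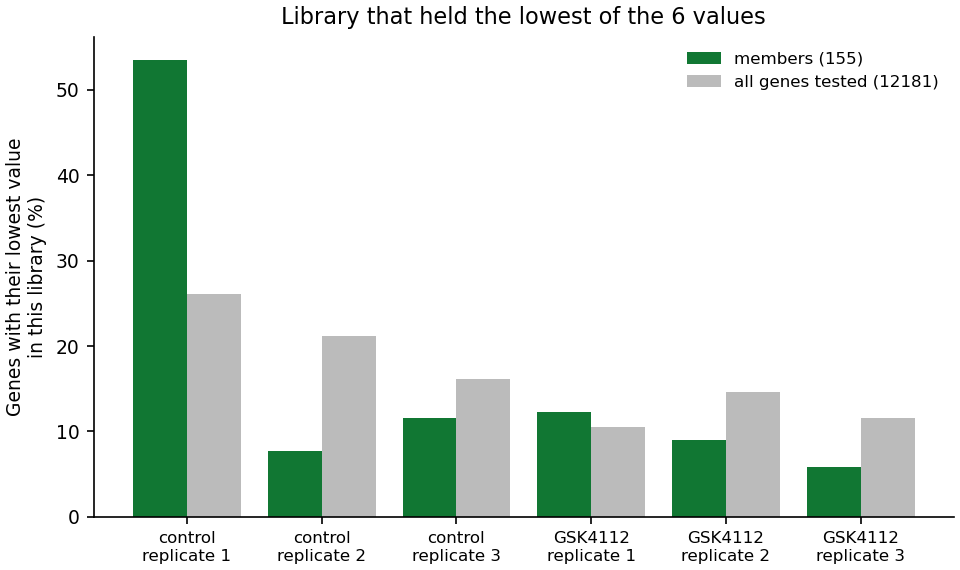
Share (%) of the 155 noncoding genes (green) and of all 12181 genes tested (grey) that had the lowest of their 6 values in each library. Control replicate 1 held the lowest value of 53.5% of the noncoding genes and of 26.1% of all genes, and no other library held over 13% of the noncoding genes.

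Each noncoding gene was set beside its nearest protein-coding gene. The body of a coding gene overlapped that of 72 of the 155, 60 antisense and 12 lincRNA, and the median distance of lincRNA genes was 3184 bp. For 35 genes, 19 of them lincRNA, the coding gene started within 2000 bp on the opposite strand, the arrangement of divergent genes. The neighbour was tested for 124 of the 155, giving 119 distinct coding genes. The 2 genes of a pair changed with the same sign in 94 pairs (75.8%), 75 with both above 0 and 19 with both below. Of the neighbours 67.7% lay above 0, as most noncoding genes did, so the same sign alone says little about a pair. Among 7111 tested coding genes, 56.4% had the sign of their own nearest tested coding gene. Pearson's r of the changes over the 124 pairs was 0.518, a description over genes measured in the same 6 libraries.

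The share was 53 of 72 (73.6%) for genes whose exons overlap no other exon and 41 of 52 (78.8%) for those with an overlap, where reads cannot be told apart. Starts within 2000 bp on opposite strands gave 25 of 33 (75.8%). Of the 22 noncoding genes called with the block, 15 had a tested neighbour, 14 with the same sign, and 5 of the 15 neighbours (33.3%) passed with the block: Anxa3, Ccn1, Syne3, Tmem178b and Usp3, each in the direction of its noncoding gene. Among the neighbours of the other noncoding genes 10 of 109 passed with the block (9.17%; 6.89% of all genes). Usp3, a ubiquitin protease gene that contains Gm15563 on its opposite strand, was at 18.4, 42.3 and 40.4 FPKM in control and 25.4, 62.8 and 56.8 in GSK4112 (0.49, limma adjusted p = 0.601, and 0.0240 with the block), and Gm15563 at 0.672, 2.12 and 1.91 and 1.73, 3.68 and 3.37. Both were lowest in replicate 1 of each group, and without control replicate 1 the log2 differences were 0.12 for Usp3 and 0.34 for Gm15563. That of Usp3 was 0.90, 0.26 and 0.33 without GSK4112 replicates 1, 2 and 3 in turn.

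Other pairs did not move together. Snhg18, which starts 148 bp from Sema5a on the opposite strand, was at 13.8, 14.8 and 11.04 FPKM in control and 11.1, 16.2 and 14.8 in GSK4112 (0.08), whereas Sema5a, a semaphorin, was at 33.7, 34.9 and 51.4 and 15.5, 23.5 and 20.4 (-0.97, limma adjusted p = 0.0886, and 0.0187 with the block). Gm32443, with its nearest coding gene Fam110c at 2330 bp, changed by 0.12, and Fam110c by -0.67 (0.133 and 0.0478). These pairs and the next were picked with their values known. The largest change of a neighbour was that of Ak4, a mitochondrial adenylate kinase gene 62542 bp from E130102H24Rik, and it rests on 1 library: Ak4 was at 57.0 FPKM in control replicate 2, at 1.64 and 5.78 in the other control libraries and at 1.41 to 1.64 in GSK4112 (-2.02, adjusted p = 0.377). E130102H24Rik was at 0.900, 3.16 and 3.797 FPKM and 2.51, 6.05 and 4.26.

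**Figure D5:**
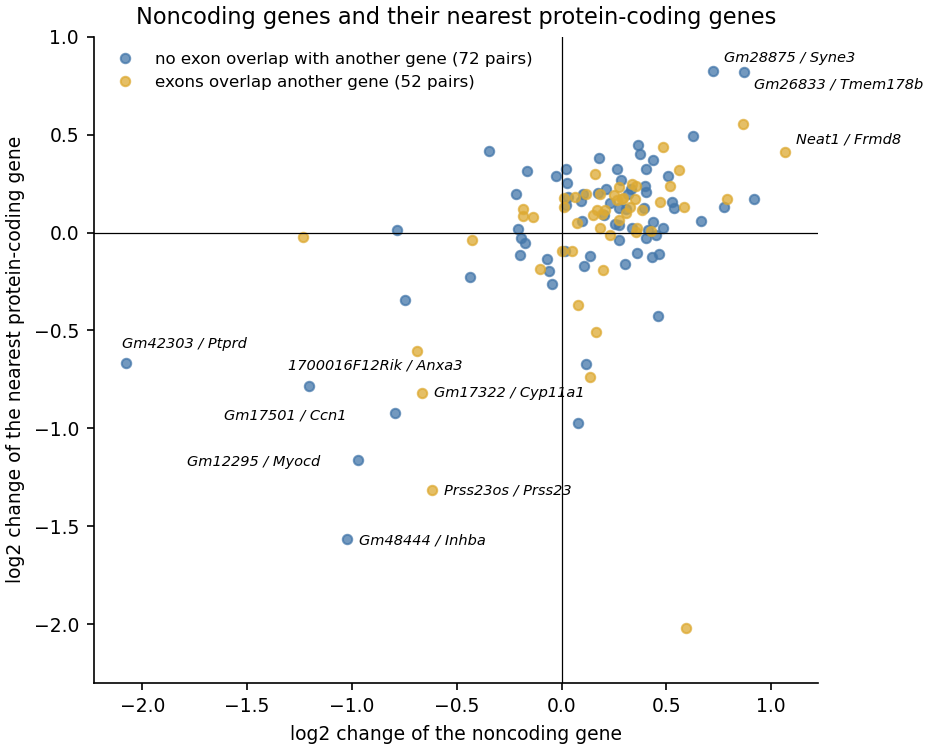
Change of the nearest protein-coding gene against that of the noncoding gene for 124 pairs, both as GSK4112 minus control on the log2(FPKM + 1) scale; blue pairs have no exon overlap with another gene and yellow ones do. Of the pairs 94 lie in the upper right or lower left, with Gm42303 and Ptprd farthest left, and Ak4 at -2.02 opposite E130102H24Rik.

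Annotation limits how some of these values can be read. Exons of 66 of the 155 overlap an exon of another gene, over more than 20% of the length in 27. A match of at least 95% identity elsewhere covers more than 50% of the transcript in 13, among them Gm26809 and Gm42047. Of the 82 genes found by symbol in RefSeq, 73 are long noncoding RNAs there, 6 protein-coding and 3 pseudogenes. For 145 of the 155 all 6 values came out as whole fragments, and the median over these of the lowest library was 47 fragments.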

How the data were processed

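The authors deposited FPKM values for 27151 Ensembl genes in 6 libraries, per the file headers. The genome build is GRCm38, per the submitters' processing notes; the sources used here do not give the aligner, counting program, annotation release or strand setting, so reads of overlapping genes on either strand cannot be told apart. Biotypes, symbols and coordinates come from GENCODE M21 (27098 IDs found, 53 not), promoters and further biotypes from RefSeq.

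A total was fitted for each library so that FPKM times exon length and total came out as whole fragments. This held within 0.01 for 90.4 to 90.7% of the values above 0 in a library. The fitted totals and rounded fragments served limma-voom as an alternative only. Genes with a mean of at least 1 FPKM were tested with limma 3.58.1 (R 4.3.3) on log2(FPKM + 1), with a variance trend, 2-sided, with Benjamini-Hochberg adjustment over 12181 genes and a threshold of 0.05. The fit without the block was run on simulated data with independent noise. Shifts shared by libraries and the block were not simulated, so that run says nothing about calls with the block. Same-numbered libraries deviated together from their group means (correlations 0.665, 0.326 and 0.213, each over 0.1), so a fit blocked on the replicate number is given beside a result where it changes the call. This pairing rests on the data, as no label states it, and with the numbers 2 and 3 swapped both correlations were higher (control replicate 3 with GSK4112 replicate 2, 0.530; control replicate 2 with GSK4112 replicate 3, 0.357).

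The nearest coding gene was taken by the distance between gene bodies. Copies were searched with blastn 2.17.0 (at least 95% identity over 50 bases). Genes were named by rank of abundance (10), by calls without the block, by size of change among calls with it (up to 8 each way), by list, or as the nearest coding gene of a called gene. The noncoding genes, lists and naming rule were chosen with earlier results of these data known. Alternatives were other pseudocounts, filters, scalings, weights, limma-voom, the block, and libraries left out. No dose is printed, since the labels give it in a unit that is no concentration.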

Additional observations from a re-analysis of the deposited data

How the results depend on the processing

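Counts of calls depended on how the replicate number and the replicate 1 libraries were handled. Over all genes 126 passed as reported, 26 with no filter on low values, 830 with sample weights, 839 with the replicate block, 786 with the block and median-of-ratios scaling, 837 without both replicate 1 libraries and, chosen after seeing the data, 1105 with the block without both; leaving out 1 library at a time gave 0 to 149. In the same order the noncoding genes gave 2 as reported, then 1, 17, 22, 19, 25 and 30, and 0 to 6 with 1 library left out. Of the 51 with a mean of at least 5 FPKM 0 passed (11 with the block), and of the 89 without exon overlap 1 (14 with the block). Shares over all genes were 1.03% as reported, 6.81% with sample weights and 6.89% with the block. They were 6.92% without both replicate 1 libraries and 9.14% with the block without both. The neighbours, 119 of them tested as reported, gave 1 as reported, 0 with no filter and with TPM scaling, 2 with median-of-ratios scaling, 3 with quantile normalization and with limma-voom, 12 with sample weights, 15 with the block, 14 with the block and median-of-ratios scaling, 16 without both replicate 1 libraries with or without the block, and 0 to 2 with 1 library left out. The cause of these shifts was not tested. Gm42303 passed in 17 of 20 alternatives (adjusted p 4.82e-06 to 0.107) and Gm42743 in 15 of 20 (0.000618 to 0.172); Gm42303 lost its call only without control replicate 3, GSK4112 replicate 2 or GSK4112 replicate 3. Signs turned only for changes near 0: the log2 change of Gm26809 (-0.11 to 0.13 with 1 library left out) was -0.045 with median-of-ratios scaling with and without the block, -0.048 with sample weights, -0.11 without control replicate 1, -0.019 without GSK4112 replicate 2 and -0.10 without both replicate 1 libraries with and without the block; the log2 change of Gm26917 (-0.12 to 0.14) was 0.14 without control replicate 2 and 0.033 without GSK4112 replicate 2; the log2 change of Snhg18 (-0.039 to 0.23) was -0.039 without control replicate 3 and -0.029 without GSK4112 replicate 2; the log2 change of Mex3a was -0.0035 without control replicate 1; the log2 change of Ice1 (-0.15 to 0.091) was 0.091 without control replicate 1, 0.051 without GSK4112 replicate 3 and 0.014 without both replicate 1 libraries with and without the block. Depth limits the least abundant genes: the lowest value rested on 4 fragments.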
